A study of Homo sapiens with 9 samples.

Results

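Dendritic cells are the leukocytes that carry antigen from tumors to lymph nodes and prime T cells, and they fall into subsets that can be told apart by a small number of transcripts. The RNA of 10 such genes was examined in orthotopic tumors of TBP3743, a murine anaplastic thyroid cancer cell line with an oncogenic BRAF mutation and Trp53 deleted, which all groups share. The genes were taken by symbol from an expression table of 17369 genes, in which all 10 had a row and a value above 0 in every tumor. Xcr1, Clec9a, Batf3 and Wdfy4 stand for type 1 conventional dendritic cells (cDC1), Cd209a and Irf4 for type 2 conventional dendritic cells (cDC2), and Siglech for plasmacytoid dendritic cells. Flt3 and Zbtb46 are shared by the conventional subsets, and Fscn1 stands for mature dendritic cells.

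The tumors grew for 14 days in the left thyroid of 6-week-old female mice, and RNA was sequenced from 9 of them, 3 in each of 3 groups. Original TBP3743 cells were implanted in B6129SF1 mice in the original group. Adapted cells, taken after passage round 3 through C57BL/6 mice, were implanted in B6129SF1 mice in the adapted B6129SF1 group and in C57BL/6 mice in the adapted C57BL/6 group. The adapted cells are 1 passaged line, for which each round went on from the largest tumors, and the hosts keep their own immune system. The sample labels name Homo sapiens as the organism, whereas the genome build, the gene symbols and the mouse strains are those of the mouse, and the values were read as mouse genes. The labels give the cell type as cancer epithelial cell, but RNA came from tumor tissue, and transcripts of leukocytes and, in some tumors, of skeletal muscle were present.

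By way of background, cDC1 cells take up dead cells and present their antigens to CD8 T cells. Their development needs the transcription factor Batf3, Clec9a is their receptor for the actin of dead cells, Xcr1 binds a chemokine of activated T and natural killer cells, and Wdfy4 is needed for cross-presentation. cDC2 cells depend on Irf4 and mainly present antigen to CD4 T cells, and Cd209a is a lectin of this subset and of monocyte-derived cells. Plasmacytoid cells make type I interferon and carry the surface lectin Siglec-H. Flt3 is the receptor for the growth factor of all these cells, and Zbtb46 is a transcription factor of conventional dendritic cells that endothelial cells also use.

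Values are FPKM, in which the fragments of a gene are divided by its transcript length and normalized between tumors. Tests used log2(FPKM + 1), a scale that understates the change of weakly expressed genes. A gene was called when its adjusted p was under 0.05 in limma over the 10263 genes that reached 1 FPKM in at least 3 tumors. Of the 10 members, 5 passed that filter, and Clec9a, Batf3 and Zbtb46 did so only through the adapted tumors. For this reason a fit with a filter on the mean of all tumors (at least 0.1 FPKM, 11999 genes), which all 10 members passed, is given beside it. The other 5 members were compared with exact two-sided permutation tests, which for 3 tumors against 3 cannot give a p below 0.1. Each group holds 3 tumors from separate animals, all means are given ± SD, and the absolute depth is unknown. In whole tumors, fewer cells of a type and less RNA per cell cannot be told apart. A list of 10 skeletal muscle genes took 6.01% of the FPKM in adapted B6129SF1 replicate 3 and 1.10% in adapted C57BL/6 replicate 1, against at most 0.136% in the other tumors, so results were also computed without these tumors. Depth relative to original replicate 1 ranged from 0.960 to 1.35, an approximate value read from the smallest steps between low values.

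Clec9a was the member with the largest difference between groups. It was measured at 0.416, 0.154 and 0.236 FPKM in original replicates 1 to 3, at 6.15, 3.46 and 2.75 FPKM in adapted B6129SF1 replicates 1 to 3, and at 2.99, 4.71 and 3.52 FPKM in adapted C57BL/6 replicates 1 to 3. Every adapted tumor was therefore far above every original tumor, and the adapted groups overlapped. The mean rose 15.3-fold from 0.269 ± 0.134 FPKM in the original group to 4.12 ± 1.79 FPKM in the adapted B6129SF1 group, and 13.9-fold to 3.74 ± 0.884 FPKM in the adapted C57BL/6 group. The log2 fold change was 1.96 (SE 0.25, adjusted p = 0.00512 from limma) in the adapted B6129SF1 group and 1.89 (SE 0.25, adjusted p = 0.00449) in the adapted C57BL/6 group. With the filter on the mean the adjusted p was 0.00646 and 0.00526, and with a pseudocount of 0.1 as well the log2 fold change was 3.50 and 3.42. Clec9a was past the threshold in both comparisons in all 19 alternative fits. Without both muscle-rich tumors its log2 fold change was 2.16 and 2.01 (adjusted p = 0.00720 and 0.00709).

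Batf3 was low in the original tumors, at 0.265, 0.290 and 0.240 FPKM. It was 0.391, 1.36 and 1.44 FPKM in the adapted B6129SF1 tumors and 1.22, 1.47 and 1.48 FPKM in the adapted C57BL/6 tumors. All adapted tumors were above all original tumors, but adapted B6129SF1 replicate 1 was close to the original values. The means were 0.265 ± 0.0251, 1.06 ± 0.583 and 1.39 ± 0.149 FPKM. Batf3 passed the threshold in the adapted C57BL/6 group, with a log2 fold change of 0.92 (SE 0.22, adjusted p = 0.0471 from limma; 0.0387 with the filter on the mean). In the adapted B6129SF1 group its log2 fold change was 0.66 (SE 0.22, adjusted p = 0.105), and 0.92 (adjusted p = 0.0184) without adapted B6129SF1 replicate 1. The adapted C57BL/6 call was close to the threshold. It was lost when any tumor other than adapted B6129SF1 replicates 1 and 3 was left out (highest adjusted p = 0.156, without adapted C57BL/6 replicate 3), and without both muscle-rich tumors (adjusted p = 0.0718).

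Wdfy4, the one cDC1 member above 1 FPKM in all tumors, did not pass the threshold. Its values were 1.76, 1.08 and 1.70 FPKM in the original tumors, 1.94, 2.92 and 2.72 FPKM in the adapted B6129SF1 group, and 3.32, 1.46 and 2.84 FPKM in the adapted C57BL/6 group. The adapted B6129SF1 tumors lay above the original tumors, and adapted C57BL/6 replicate 2 fell inside the original range. The log2 fold change was 0.49 (95% interval -0.04 to 1.02, adjusted p = 0.224 from limma) and 0.47 (-0.07 to 1.00, adjusted p = 0.264).

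Xcr1 stayed under 0.4 FPKM in every tumor. The original tumors had 0.158, 0.132 and 0.162 FPKM, against 0.148, 0.281 and 0.284 FPKM in the adapted B6129SF1 group, and 0.264, 0.321 and 0.141 FPKM in the adapted C57BL/6 group. The groups overlapped, with 1 tumor of each adapted group inside the original range (p = 0.3 and p = 0.3, exact permutation tests). In the fit with the filter on the mean the log2 fold change was 0.10 (95% interval -0.11 to 0.32) and 0.11 (-0.11 to 0.33). These values were divided by the smallest of them and scaled by relative depth. They came to 1 or 2 in each tumor, with 7 of 9 within 0.15 of a whole number, the smallest by construction. Fscn1, at far higher levels, came to 1 or 2 as well, so the fragments behind Xcr1 cannot be counted this way. On the per-length FPKM scale the mean of Clec9a was 1.78 times that of Xcr1 in the original group. It was 17.3 times that of Xcr1 in the adapted B6129SF1 group and 15.5 times in the adapted C57BL/6 group. These ratios rest on Xcr1 values under 0.4 FPKM, and the difference between the changes of the genes was not tested.

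**Figure D1:**
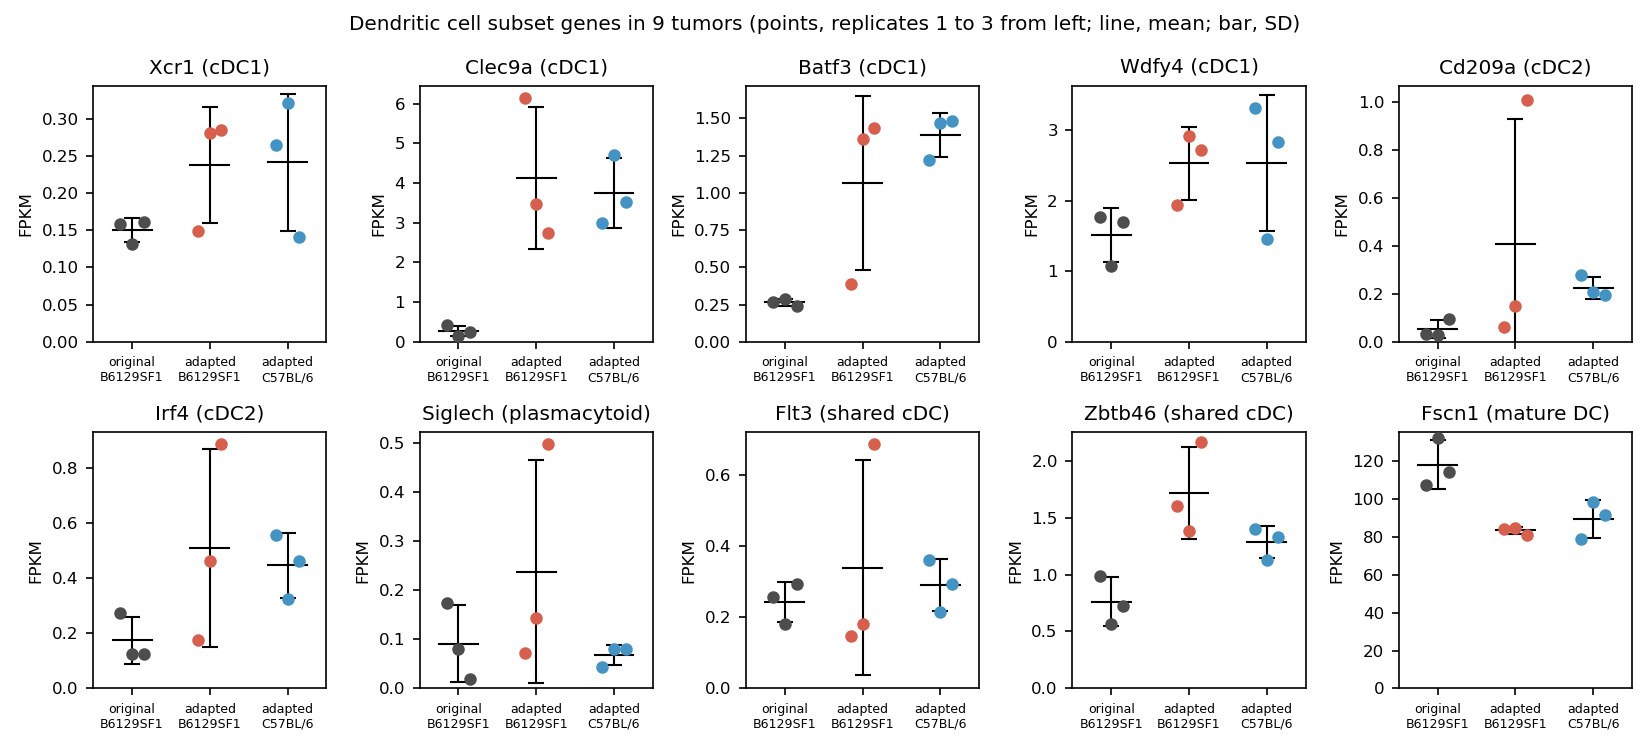
FPKM of each of the 10 genes (y axis, linear from 0) in the 9 tumors by group (x axis). Points are tumors, replicates 1 to 3 from left to right, the horizontal line is the mean and the vertical bar is the SD, which runs below 0 for Cd209a in the adapted B6129SF1 group and is cut at the axis. All 6 adapted tumors lie above the original tumors for Clec9a, Batf3 and Zbtb46 and below them for Fscn1, and adapted B6129SF1 replicate 3 is the highest tumor for Cd209a, Irf4, Siglech, Flt3 and Zbtb46.

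Of the genes shared by the conventional subsets, Zbtb46 was 0.990, 0.567 and 0.723 FPKM in the original tumors. It was 1.60, 1.38 and 2.17 FPKM in the adapted B6129SF1 tumors and 1.40, 1.13 and 1.33 FPKM in the adapted C57BL/6 tumors. Both adapted groups lay wholly above the original group, by 2.26-fold and 1.69-fold in the means. The log2 fold change was 0.62 (SE 0.17, adjusted p = 0.0553 from limma) in the adapted B6129SF1 group, just outside the threshold, and the same change passed with the filter on the mean (adjusted p = 0.0389). In the adapted C57BL/6 group it was 0.38 (SE 0.17, adjusted p = 0.202). Endothelial genes, which share Zbtb46, summed to 72.2 ± 10.9, 87.6 ± 18.0 and 87.8 ± 9.71 FPKM in the 3 groups over 8 genes, none of them called and none at 0 in every tumor, and their part in the Zbtb46 values was not tested.

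Flt3 did not pass the filter. The original tumors had 0.256, 0.183 and 0.293 FPKM, against 0.148, 0.182 and 0.689 FPKM in the adapted B6129SF1 group, and 0.363, 0.216 and 0.295 FPKM in the adapted C57BL/6 group. Adapted B6129SF1 replicate 3 was the highest tumor, whereas replicates 1 and 2 of its group lay below all original tumors, replicate 2 only just. The adapted C57BL/6 group overlapped the original group. Over all tumors the exact permutation tests gave p = 1 and p = 0.4. The fit with the filter on the mean put its log2 fold change at 0.09 (95% interval -0.26 to 0.43) and 0.05 (-0.29 to 0.40).

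Both cDC2 genes were under 1 FPKM in nearly all tumors. Irf4 had 0.272, 0.125 and 0.126 FPKM in the original tumors, 0.176, 0.463 and 0.890 FPKM in the adapted B6129SF1 group, and 0.559, 0.324 and 0.463 FPKM in the adapted C57BL/6 group. The adapted C57BL/6 tumors lay above all original tumors (p = 0.1, exact permutation test, the smallest p it can give), whereas adapted B6129SF1 replicate 1 lay among them (p = 0.2, exact permutation test).

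Cd209a had 0.0335, 0.0278 and 0.0949 FPKM in the original tumors, 0.0618, 0.147 and 1.01 FPKM in the adapted B6129SF1 group, and 0.277, 0.206 and 0.193 FPKM in the adapted C57BL/6 group. Again only the adapted C57BL/6 group lay wholly above the original group (p = 0.1, exact permutation test), and the adapted B6129SF1 mean of 0.406 ± 0.524 FPKM was set by replicate 3, a muscle-rich tumor. The values are small. They were divided by the smallest of them and scaled by relative depth. This gave 1, 1 and 3 steps in the original group and 2, 6 and 32 in the adapted B6129SF1 group. The adapted C57BL/6 group gave 11, 6 and 7. Of the 9 values, 8 were within 0.15 of a whole number, the smallest by construction. How many fragments a step holds is not known. Thus 2 of the 5 members under the filter did not overlap between the adapted C57BL/6 and original groups, where 16.3% of the genes under the filter and above 0 in every tumor were higher without overlap. In the adapted B6129SF1 group 0 of the 5 did so (15.4% of genes higher). No member under the filter lay wholly below the original group, as 6.55% of such genes did in the adapted B6129SF1 group and 8.58% in the adapted C57BL/6 group. In the fit with the filter on the mean neither gene was called in either comparison, and the adjusted p of Irf4 was 0.261 and 0.337 and that of Cd209a 0.342 and 0.606.

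Siglech, the only plasmacytoid member, was the lowest of the 10 genes on average. Its values were 0.174, 0.0803 and 0.0184 FPKM in the original tumors, 0.0720, 0.143 and 0.496 FPKM in the adapted B6129SF1 group, and 0.0440, 0.0802 and 0.0803 FPKM in the adapted C57BL/6 group. These values came to 9, 5 and 1 smallest steps, 4, 10 and 27 steps, and 3, 4 and 5 steps. All 9 were within 0.15 of a whole number, the smallest by construction, and the number of fragments in a step is not known. The groups overlapped (p = 0.5 and p = 0.8, exact permutation tests), and the highest tumor was again adapted B6129SF1 replicate 3. A difference of Siglech between groups was not detectable at these levels.

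Fscn1, which encodes the actin-bundling protein fascin of mature dendritic cells, was the only member called lower. It was 107.6, 132.7 and 114.5 FPKM in the original tumors, 84.2, 85.0 and 81.3 FPKM in the adapted B6129SF1 tumors, and 79.0, 98.7 and 91.5 FPKM in the adapted C57BL/6 tumors. All adapted tumors lay below all original tumors. The means were 118.3 ± 12.9 FPKM for original, 83.5 ± 1.94 FPKM for adapted B6129SF1 and 89.7 ± 9.95 FPKM for adapted C57BL/6 tumors. The log2 fold change was -0.49 (SE 0.11, adjusted p = 0.0326 from limma) in the adapted B6129SF1 group and -0.39 (SE 0.11, adjusted p = 0.0702) in the adapted C57BL/6 group. The adapted B6129SF1 call was close to the threshold. It was lost when any original tumor, any adapted B6129SF1 tumor or adapted C57BL/6 replicate 3 was left out (highest adjusted p = 0.0878, without original replicate 3), and without both muscle-rich tumors (adjusted p = 0.0785).

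The level of Fscn1 was far above that of the other members. Its mean over all tumors was 97.2 FPKM, above 95.9% of the genes in the table, while the other members averaged 0.132 (Siglech) to 2.71 FPKM (Clec9a). Fascin is also made by many tumor and stromal cells, and which cells gave the transcript was not tested.

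In the comparison with the original group, 1 member was called higher (Clec9a) and 1 lower (Fscn1) in the adapted B6129SF1 group, where 4.37% of all tested genes were higher and 3.92% lower. In the adapted C57BL/6 group 2 members were called higher (Clec9a and Batf3) and 0 lower, against 3.99% and 2.77% of all tested genes. Both comparisons share the original tumors. With the filter on the mean, the called members were Clec9a, Zbtb46 and Fscn1 in the adapted B6129SF1 group (3.48% of genes higher, 3.08% lower) and Clec9a and Batf3 in the adapted C57BL/6 group (3.23% higher, 2.19% lower). The median log2 fold change of all tested genes was -0.03 in each comparison. By ranges alone, 4 of all 10 members lay wholly above the original group in the adapted B6129SF1 tumors (Clec9a, Batf3, Wdfy4 and Zbtb46), as 14% of the genes with a mean of at least 0.1 FPKM did, and Fscn1 lay wholly below it, as 14.5% did. In the adapted C57BL/6 tumors 5 of 10 lay wholly above (Clec9a, Batf3, Zbtb46, Cd209a and Irf4), against 15.1% of these genes, and Fscn1 again below, against 16.4%.

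**Figure D2:**
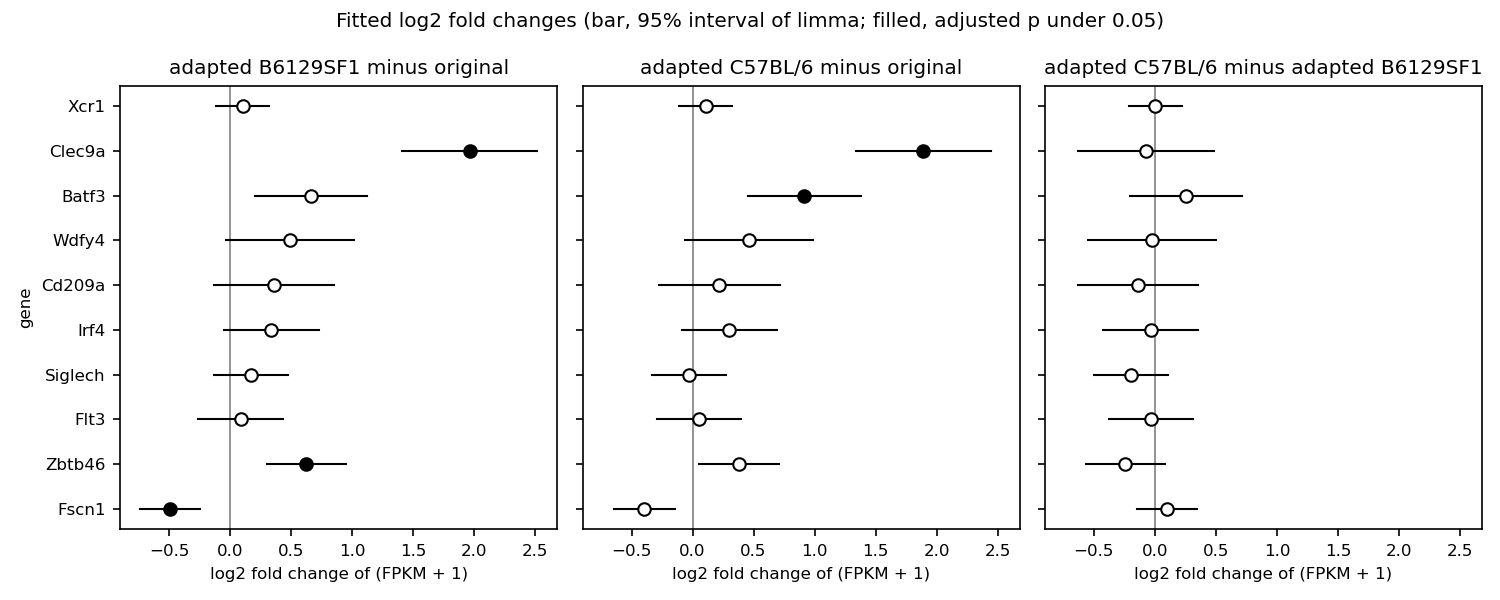
Log2 fold changes of (FPKM + 1) (x axis) of the 10 genes (y axis) in the 3 comparisons of groups, from the limma fit with the filter on the mean of all tumors. Bars are 95% intervals and filled points have an adjusted p under 0.05. Clec9a stands apart at 1.96 and 1.89 in the comparisons with the original group, and every interval of adapted C57BL/6 minus adapted B6129SF1 holds 0.

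The host of the adapted cells was compared by setting the adapted C57BL/6 against the adapted B6129SF1 tumors. According to the study's methods, the strains came from different suppliers, so strain and supplier cannot be told apart. The adapted C57BL/6 and original groups differ in both cells and host, and no tumor of original cells in C57BL/6 mice was sequenced. No member was called by limma, and 0 of the 5 tested had an unadjusted p under 0.05, with 0% of all tested genes called higher and 0.0292% lower (0% and 0.0167% with the filter on the mean). The log2 difference of Clec9a, adapted C57BL/6 minus adapted B6129SF1, was -0.07 (95% interval -0.63 to 0.49), that of Batf3 0.25 (-0.26 to 0.76), that of Wdfy4 -0.02 (-0.56 to 0.51), that of Zbtb46 -0.24 (-0.62 to 0.14) and that of Fscn1 0.10 (-0.16 to 0.35). A difference of Clec9a of about the size seen against the original group lies outside its interval. The intervals of Batf3 and Wdfy4 hold the changes of 0.66 and 0.49 that these genes had in the adapted B6129SF1 group against the original group. All 10 members overlapped between the adapted groups, as most genes did. Of the genes with a mean of at least 0.1 FPKM, 6.06% were wholly higher in the adapted C57BL/6 tumors and 5.27% wholly lower. Among genes under the filter 4.83% were wholly higher and 4.64% wholly lower, and the 5 members there gave no low p (Siglech p = 0.3, exact permutation test, and p of 0.9 or above for the others).

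Leukocyte genes varied between tumors, and each member was also set against 9 general leukocyte genes. Ptprc, which encodes the pan-leukocyte antigen CD45, was 16.4, 11.6 and 18.8 FPKM in the original tumors, 21.9, 31.6 and 34.5 FPKM in the adapted B6129SF1 tumors, and 35.6, 17.6 and 31.6 FPKM in the adapted C57BL/6 tumors. The adapted B6129SF1 tumors lay above the original tumors and adapted C57BL/6 replicate 2 lay among them. None of the 9 leukocyte genes was called, with a median log2 fold change of 0.71 and 0.64.

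With a pseudocount of 1, Clec9a was higher relative to these genes without overlap in both adapted groups, where 1.38% and 1.90% of the genes with a mean of at least 0.1 FPKM were. Fscn1 was lower in both, and Xcr1, Siglech and Flt3 were lower in the adapted B6129SF1 group, on a scale where 65.4% and 29.6% of these genes were lower without overlap. Batf3 differed on this scale by 0.34 in the adapted C57BL/6 group with overlap (p = 0.5, exact permutation test) and Cd209a by -0.36 with overlap (p = 0.4, exact permutation test). No member was without overlap between the adapted groups, where 1.81% of genes were higher and 1.00% lower in the adapted C57BL/6 tumors. For members under 1 FPKM this ratio follows mainly the leukocyte genes.

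The ratio was therefore also taken as log2 of FPKM without a pseudocount, a setting chosen after seeing the data. On that scale Clec9a was higher by 3.29 in the adapted B6129SF1 group and 3.30 in the adapted C57BL/6 group, without overlap in either (p = 0.1 each, exact permutation tests). Of the 11796 genes above 0 in every tumor, 2.97% and 3.69% were higher without overlap on this scale. Unlike with the pseudocount of 1, Batf3 was higher by 1.79 in the adapted C57BL/6 group without overlap (p = 0.1, exact permutation test) and by 1.11 in the adapted B6129SF1 group with overlap (p = 0.2). Cd209a turned from lower to higher, by 1.72 without overlap in the adapted C57BL/6 group (p = 0.1, exact permutation test). Wdfy4 differed by 0.07 and 0.10 and Xcr1 by -0.08 and 0.01, with p from 0.8 to 0.9 in exact permutation tests. Fscn1 was lower by 1.18 and 1.00 without overlap (p = 0.1 each, exact permutation tests), on a scale where 57.4% and 29.1% of genes were lower without overlap. Between the adapted groups no member was without overlap on this scale, as 2.66% of genes were higher and 1.78% lower in the adapted C57BL/6 tumors. When the leukocyte mean entered the limma model as a covariate, only Clec9a was called in either comparison, its log2 fold change being 2.46 against 2.33 (adjusted p = 0.0221 against 0.0171), and Batf3 was not (0.51 and 0.78, adjusted p = 0.485 and 0.236).

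The members were then followed from tumor to tumor within groups, as deviations of log2(FPKM + 1) from the group means over the 9 tumors. These correlations are descriptions, since the values share libraries and few tumors. Clec9a deviated against most other members. Its r was -0.75 with Batf3, -0.81 with Irf4, -0.69 with Flt3, -0.69 with Cd209a and -0.60 with Wdfy4, and -0.69 with the mean of the leukocyte genes. Adapted B6129SF1 replicate 1 and adapted C57BL/6 replicate 2, the tumors with the lowest Ptprc of their groups, had the highest Clec9a. Without adapted B6129SF1 replicate 3 the r of Clec9a was -0.63 with Batf3, -0.69 with Irf4, -0.48 with Flt3 and 0.02 with Siglech, and that with Zbtb46 turned from -0.27 to 0.25.

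Wdfy4 showed the opposite pattern and followed the leukocyte genes, with an r of 0.91 with the leukocyte genes and of 0.69 with T cell genes. Batf3 followed T cell genes more closely (r = 0.86) than the leukocyte genes (r = 0.26), and so did Irf4 (r = 0.80 against 0.54). Which cells gave the Batf3 and Irf4 transcripts was not tested. Cd209a, Irf4, Siglech and Flt3 deviated together, with r from 0.83 to 0.97 for all 6 pairs. Flt3 and Zbtb46, the shared members, had an r of 0.79, and of 0.57 without adapted B6129SF1 replicate 3. The agreement among those 4 genes rested largely on this tumor, without which their pairs ranged from -0.27 (Cd209a and Siglech) to 0.71 (Cd209a and Flt3). Fscn1 deviated against the leukocyte genes (r = -0.59) and against Wdfy4 (r = -0.80).

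**Figure D3:**
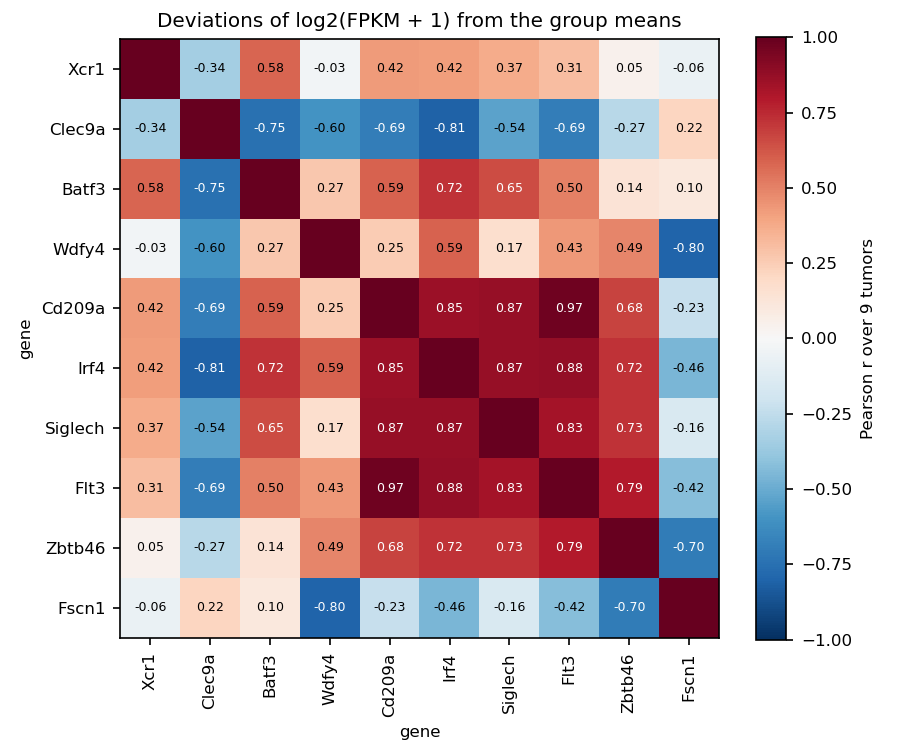
Pearson r between the 10 genes (both axes) of the deviations of log2(FPKM + 1) from the group means over 9 tumors, from -1 (blue) to 1 (red). The Clec9a row is negative against all other members except Fscn1 (0.22), and the block of Cd209a, Irf4, Siglech and Flt3 is between 0.83 and 0.97.

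Among all tested genes, those most like Clec9a over the 9 tumors were Hoxa10, a homeobox transcription factor gene (r = 0.992), Prkar1b, which encodes a regulatory subunit of protein kinase A (r = 0.990), and Clec1a, a C-type lectin gene next to Clec9a in the natural killer gene complex (r = 0.988). In all, 194 genes had an r above 0.9 with Clec9a. Within groups the deviations of these 3 genes correlated with those of Clec9a at 0.91, 0.94 and 0.85. This is a description and no separate check, since the genes were picked by their r over the same tumors. Hoxa10 had 1.65, 1.63 and 1.29 FPKM in the original tumors, 19.9, 14.1 and 10.8 FPKM in the adapted B6129SF1 group, and 10.3, 19.2 and 13.2 FPKM in the adapted C57BL/6 group.

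Clec1a was 1.96, 0.939 and 0.950 FPKM in the original tumors, 18.4, 14.7 and 11.9 FPKM in the adapted B6129SF1 tumors, and 11.4, 19.1 and 13.05 FPKM in the adapted C57BL/6 tumors. It rose by 2.82 (SE 0.24, adjusted p = 0.00159 from limma) and 2.76 (SE 0.24, adjusted p = 0.00181) on the log2 scale, and each adapted tumor was again far above each original tumor. The ratio of Clec9a to Clec1a, in FPKM, was 0.213, 0.164 and 0.248 in the original group, 0.333, 0.235 and 0.232 in the adapted B6129SF1 group, and 0.263, 0.247 and 0.270 in the adapted C57BL/6 group. The groups overlapped in this ratio, which is a description, since Clec1a was picked for its likeness to Clec9a in the same tumors. Whether fragments of Clec1a transcripts enter the Clec9a values was not tested.

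**Figure D4:**
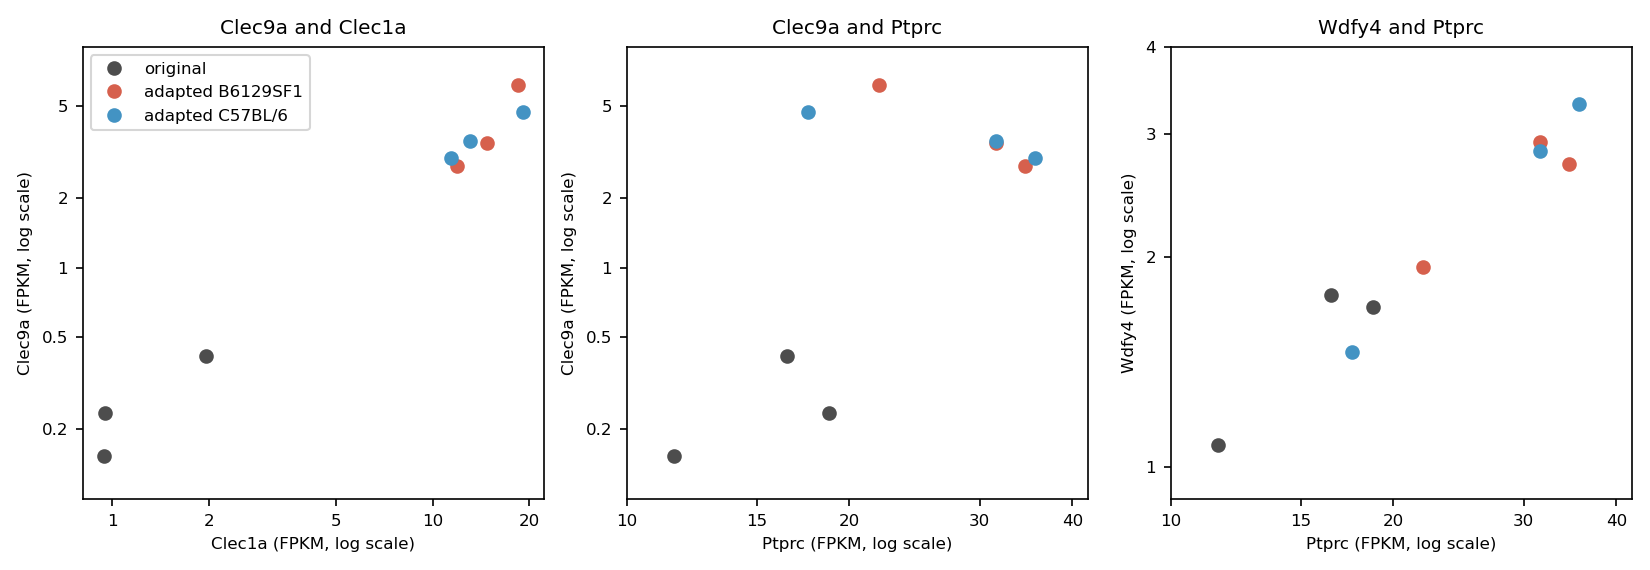
FPKM per tumor on log axes, with Clec9a against Clec1a (left), Clec9a against Ptprc (middle) and Wdfy4 against Ptprc (right); colors are groups and each point is a tumor. Clec9a follows Clec1a in all 9 tumors, whereas among the adapted tumors Clec9a is highest in the 2 with the lowest Ptprc, and Wdfy4 rises with Ptprc.

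The genes most like Batf3 were Ubd (r = 0.965), Apol6 (r = 0.963) and Cd3d (r = 0.962), the last a chain of the T cell receptor complex. Those most like Wdfy4 were Hcls1 (r = 0.981), Lfng (r = 0.980) and Ptprc (r = 0.976), of which Hcls1 and Ptprc are leukocyte genes. Zbtb46 was most like Ksr1 (r = 0.960), Cfb (r = 0.959) and Tacc1 (r = 0.957), and Fscn1 most like Zfp53 (r = 0.982), Bbs5 (r = 0.981) and 2310022B05Rik (r = 0.976). Among the 3 tested cDC1 members the r was 0.69 for Clec9a and Batf3, 0.52 for Clec9a and Wdfy4, and 0.65 for Batf3 and Wdfy4. By comparison, 194, 102 and 71 genes had an r above 0.9 with Clec9a, Batf3 and Wdfy4.

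Wider lists of subset genes were then counted. Beside these and the later lists stand all tested genes, of which 4.37% were called higher in the adapted B6129SF1 group and 3.99% in the adapted C57BL/6 group. Lower calls made up 3.92% and 2.77% of all tested genes. The 9 general leukocyte genes had a median log2 fold change of 0.71 and 0.64. Of 8 tested among 14 other cDC1 genes, 2 were called higher in the adapted B6129SF1 group and 3 in the adapted C57BL/6 group, and 0 lower in either, with a median log2 fold change of 0.28 and 0.50. Irf8, the transcription factor that specifies cDC1 cells and is also used by macrophages and B cells, was 8.71, 9.12 and 10.5 FPKM in the original tumors, 19.4, 19.6 and 21.3 FPKM in the adapted B6129SF1 group, and 22.2, 18.1 and 29.8 FPKM in the adapted C57BL/6 group. It rose by 1.02 (adjusted p = 0.0109 from limma) and 1.20 (adjusted p = 0.00527) on the log2 scale, and the adapted tumors lay above all original tumors. Naaa, a lysosomal amidase gene found in cDC1 cells, was also higher, by 1.28 and 1.30 (limma, adjusted p = 0.0113 and 0.00883). Id2, a transcriptional regulator of cDC1 and innate lymphoid cells, passed the threshold in the adapted C57BL/6 group at 0.73 (adjusted p = 0.0499 from limma). The lowest values of Naaa and Id2 were 16.5 and 35.9 FPKM, against a highest Xcr1 value of 0.321 FPKM. Which cells gave these transcripts was not tested. The other tested genes of the list were called in neither group. Their log2 fold changes were -0.06 and -0.44 for Cadm1, 0.27 and -0.03 for Nfil3, and 0.04 and 0.12 for Tlr3. For Ppt1 they were 0.13 and 0.27, and for Cd24a 0.79 and 0.86.

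Of 11 tested among 14 other cDC2 genes, 2 were called higher in each adapted group and 0 lower, with a median log2 fold change of 0.32 and 0.66. Both were the neighboring membrane protein genes Tmem176a, up by 1.21 and 1.12 (adjusted p = 0.0122 and 0.0157 from limma), and Tmem176b, up by 1.18 and 1.10 (adjusted p = 0.0130 and 0.0170). Tmem176b reached 263.4 FPKM in adapted C57BL/6 replicate 2 and 234.1 FPKM in adapted B6129SF1 replicate 1, the adapted tumors with the least Ptprc.

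Of 14 other plasmacytoid genes 7 were tested, and 2 were called higher in the adapted B6129SF1 group and 3 in the adapted C57BL/6 group, none lower, with a median of 1.04 and 1.13. These medians include Cox6a2, which rose by 3.05 and 1.83 without being called. It was 390.8 and 122.5 FPKM in the muscle-rich tumors, adapted B6129SF1 replicate 3 and adapted C57BL/6 replicate 1, and at most 18.6 FPKM elsewhere. The called genes were Lag3 (up by 1.11 and 1.27, adjusted p = 0.00761 and 0.00424 from limma) and Ptprcap (up by 1.34 and 1.28, adjusted p = 0.0326 and 0.0434), which T cells also express, and in the adapted C57BL/6 group Bst2 (up by 1.13, adjusted p = 0.0194), an interferon-induced gene of many cells. The other 7 genes of the list were not tested, and they differed among themselves. Of these, chosen after their values were seen, Spib, Ccr9 and Bcl11a stayed at or under 0.359, 0.196 and 0.181 FPKM in every tumor. Pacsin1, in contrast, was at 0.182 to 0.297 FPKM in the original tumors and at 0.526 to 1.78 FPKM in the adapted tumors, without overlap, and Klk1 reached 137.7 FPKM in adapted B6129SF1 replicate 2 alone, against at most 0.422 FPKM elsewhere.

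Of 13 tested among 16 maturation genes, 0 were called in the adapted B6129SF1 group and 1 in the adapted C57BL/6 group, with a median log2 fold change of 0.10 and 0.41. This was Ccl22, a chemokine of mature dendritic cells and macrophages, up by 0.93 (adjusted p = 0.0473 from limma) from 0.478, 1.45 and 1.59 FPKM in the original tumors to 3.39, 2.79 and 2.92 FPKM in the adapted C57BL/6 tumors. It was 1.50, 0.959 and 1.58 FPKM in the adapted B6129SF1 tumors, inside the original range.

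Signals that recruit or sustain dendritic cells were called higher in 3 of 9 tested genes in the adapted B6129SF1 group and 2 of 9 in the adapted C57BL/6 group, none lower, with a median of 0.54 and 0.68. Flt3l, the ligand of Flt3, was 4.75, 5.03 and 4.05 FPKM in the original tumors, 6.50, 7.04 and 7.85 FPKM in the adapted B6129SF1 group, and 5.83, 6.41 and 7.94 FPKM in the adapted C57BL/6 group. It rose by 0.54 (adjusted p = 0.0447 from limma) in the adapted B6129SF1 group. Ccl5, a chemokine that attracts T cells and dendritic cells, was higher by 1.69 and 1.67 (limma, adjusted p = 0.00746 and 0.00645), Csf2ra by 0.93 in the adapted B6129SF1 group (adjusted p = 0.0345), and Ccl4 by 1.52 in the adapted C57BL/6 group (adjusted p = 0.0356).

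The MHC class II genes, through which dendritic cells, macrophages and B cells present antigen, were counted as well. All 6 tested were called higher in the adapted B6129SF1 group (median 2.06) and 0 of 6 in the adapted C57BL/6 group (median 0.84). Their summed level was 288.5, 230.9 and 330.0 FPKM in the original tumors, 762.1, 2070.4 and 2077.3 FPKM in the adapted B6129SF1 tumors, and 726.1, 328.1 and 584.7 FPKM in the adapted C57BL/6 tumors. The sums of the adapted groups did not overlap, but those of the 2 replicates 1, 762.1 and 726.1 FPKM, were close. H2-Eb1, H2-Aa and H2-Ab1 rose by 2.55, 2.48 and 2.44 in the adapted B6129SF1 group (adjusted p = 0.0129, 0.0133 and 0.0142 from limma) and Ciita, their transcriptional activator, by 1.56 (adjusted p = 0.0159). In the test of adapted C57BL/6 minus adapted B6129SF1 itself, 0 of the 6 were called by limma, with a median of -1.19. The unadjusted p was under 0.05 for 5 of them, and for 643 of all 10263 tested genes. The cDC1 members summed to 7.95 ± 0.719 FPKM in the adapted B6129SF1 group and 7.91 ± 0.106 FPKM in the adapted C57BL/6 group. This sum joins genes that varied in opposite directions. In adapted C57BL/6 replicates 1 to 3, Clec9a was 2.99, 4.71 and 3.52 FPKM and Wdfy4 was 3.32, 1.46 and 2.84 FPKM.

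**Figure D5:**
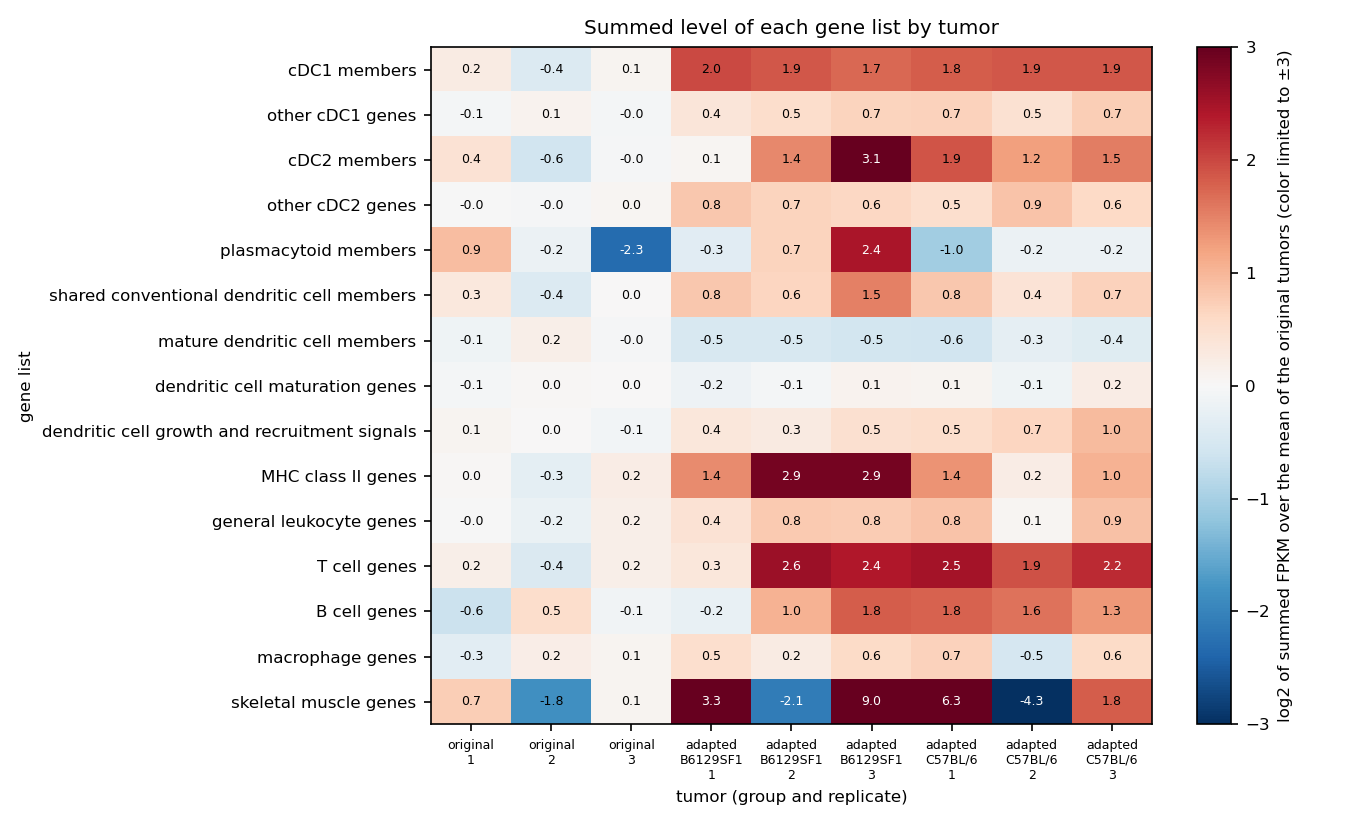
Log2 of the summed FPKM of 15 gene lists (y axis) in each tumor (x axis) over the original mean, with the color limited to 3 in either direction and the values printed. The sum of the cDC1 members, made up largely of Clec9a and Wdfy4, stands between 1.7 and 2.0 in all adapted tumors. Within the adapted C57BL/6 group these genes vary in opposite directions. MHC class II genes, T cell genes and skeletal muscle genes differ between tumors of 1 group.

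Other leukocytes that share some of these genes were present at very different levels. The 10 T cell genes summed to 7.91, 5.20 and 7.98 FPKM in the original tumors, to 8.88, 41.6 and 37.3 FPKM in the adapted B6129SF1 tumors, and to 39.9, 26.4 and 33.4 FPKM in the adapted C57BL/6 tumors. Adapted B6129SF1 replicate 1, the adapted tumor with the lowest Batf3 and the highest Clec9a, was close to the original tumors. Of the T cell genes, 1 of 10 was called higher in the adapted B6129SF1 group and 2 in the adapted C57BL/6 group. Among all tested genes 4.37% and 3.99% were called higher. The 9 macrophage genes summed to between 1146 and 2618 FPKM, with 0 and 1 called, and the 5 monocyte genes to between 110.3 and 279.7 FPKM, with 1 and 0 called. The 8 B cell genes summed to at most 1.62 FPKM and none was tested. No gene of any list was at 0 in every tumor, and the part of these cells in the values of the members was not tested.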

How the data were processed

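RNA from 9 tumors was analysed, 3 in each group, assigned by the titles of the samples. According to the study's methods, the authors used HISAT2 for the alignment of paired-end reads (mouse build mm10) and Cuffnorm for a joint normalization of all tumors, and the deposited values are FPKM. The gene annotation is not given in the sources used here. FPKM has no counts, so depth is approximate and the 3 tumors per group limit the precision.

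A linear model of the 3 groups was fitted to log2(FPKM + 1) of the 10263 genes that reached 1 FPKM in 3 or more tumors, using limma 3.58.1 under R 4.3.3 with moderated variances that follow a mean-variance trend and Benjamini-Hochberg adjustment over all genes tested. Single values were compared with exact two-sided permutation tests in Python 3.11.15. The procedure was tested on simulated data. P-values measure the spread between the separate tumors of a group. Ratios to leukocyte genes used the mean over 9 genes. Relative depth came from the steps between low FPKM values, with 35 to 144 of 758 to 1054 weak genes on the main step.

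The members and lists were chosen with earlier results of these data known. Genes named are the 10 members, Ptprc and up to 4 called genes of each pathway list by smallest adjusted p. For each tested member the 3 genes with the highest r are named too. Spib, Ccr9, Bcl11a, Pacsin1, Klk1, Cox6a2 and the uncalled genes of the cDC1 list were added after their values were seen. Of 170 list entries 159 had a row, and the others were not analysed here. Same-numbered tumors are different animals. A mouse genome and promoter sequences were not used here, so no motif search was made and no sequences or coordinates are given. Alternatives are described in the closing section.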

Additional observations from a re-analysis of the deposited data

How the results depend on the processing

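The results are limited by 3 tumors a group and by the low level of 5 members, and members under 1 FPKM cannot be compared on a log scale without the pseudocount setting the size of the change. The main counts were 2 members called in the adapted B6129SF1 group, 2 in the adapted C57BL/6 group and 0 between the adapted groups. Clec9a was called in all 19 alternatives of both comparisons with the original group (log2 fold change from 1.69 to 3.50 and from 1.75 to 3.42). The count in the adapted B6129SF1 group fell to 1 without both muscle-rich tumors, with the leukocyte covariate, when the model held just the compared groups and with an absolute log2 fold change above 1 required. That in the adapted C57BL/6 group fell to 1 under the same settings apart from the model of just the compared groups. Calls over all 10263 genes fell as well. In the adapted B6129SF1 group they went from 850 to 472, 108, 449 and 330 in the order of these settings, and in the adapted C57BL/6 group from 693 to 536 without the muscle-rich tumors, 186 with the covariate and 317 with the fold change requirement. Leaving out each tumor gave 1 to 2 called members in each of these comparisons and 0 to 0 between the adapted groups. The fold change requirement removes Fscn1 and Batf3 by construction, and for the other settings the cause was not tested. Zbtb46 was called in the adapted B6129SF1 group in 4 of 19 alternatives.

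With the replicate number as a block, 2 members were called in the adapted B6129SF1 group, 1 in the adapted C57BL/6 group, where Batf3 was lost (adjusted p = 0.0728), and 0 between the adapted groups. Calls over all genes fell from 850 to 444 and from 693 to 388 under the block. The numbers do not pair the tumors. Same-numbered tumors correlated in their deviations at -0.33, 0.03 and 0.01 between the original and adapted B6129SF1 groups and at 0.11, 0.30 and 0.07 between the original and adapted C57BL/6 groups, and at -0.39, 0.61 and -0.26 between the adapted groups.

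With the leukocyte covariate the log2 fold change of Wdfy4 turned from 0.49 to -0.12, from 0.47 to -0.071 and, between the adapted groups, from -0.02 to 0.052, none called. When a tumor was left out, the uncalled differences between the adapted groups ranged from -0.27 to 0.20 for Clec9a, from -0.0074 to 0.40 for Batf3 and from -0.19 to 0.22 for Wdfy4.

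Of the members under the filter, 0, 2 and 0 did not overlap in the 3 comparisons, with ranges of 0 to 3, 2 to 3 and 0 to 2 when a tumor was left out. Relative to leukocyte genes, with a pseudocount of 1, 5, 2 and 0 members did not overlap, with ranges of 5 to 7, 2 to 8 and 0 to 3. These counts are mostly of lower members, on a scale where 65.4% and 29.6% of genes were lower without overlap in the comparisons with the original group. In the adapted B6129SF1 group the count was 7 over Ptprc alone, 3 with a pseudocount of 0.1, and 2 without one, over the leukocyte genes or Ptprc. In the adapted C57BL/6 group it was 4 with a pseudocount of 0.1, 4 over Ptprc alone, 4 without a pseudocount and 5 without a pseudocount over Ptprc. The count of 8 came without adapted C57BL/6 replicate 2. The settings without a pseudocount, and the fit with the mean filter and a pseudocount of 0.1, were chosen after seeing the data. The alternatives of all single members were counted as well. A result was kept when it held direction and side of the threshold. For members under the filter it was kept when it moved less than the spread between tumors. With a tumor left out 249 were kept, 14 lost a call, 1 gained a call and 6 changed direction. With another setting 267 were kept, 6 lost a call, 4 gained a call and 3 changed direction. A further 20, all of members under the filter, moved by at least that spread.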
